A study of Homo sapiens with 12 samples.

Results

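The genes described here are 10 secreted signalling genes of tumour cells: the CXC chemokines CXCL1, CXCL2, CXCL3 and CXCL8, the CC chemokines CCL2 and CCL20, the colony-stimulating factors CSF1 and CSF2, the cytokine LIF of the interleukin-6 family and the cytokine IL1A of the interleukin-1 family. They were taken by name, each symbol matched 1 Ensembl identifier, and together they make up 10 of the 60623 genes in the deposited count table. Of these 10 genes, 9 passed the filter on low counts (all but IL1A), as did 23684 genes of the whole table. Poly-A RNA was sequenced from SW480 and COLO320DM, both established human colorectal cancer cell lines, to look for expression changes that could bear on proliferation. One group of each line had received pCMV6-HKDC1, a plasmid that drives the hexokinase family gene HKDC1 from the CMV promoter, and the other had received pCMV6-Entry, the matching vector without it. The 4 groups were thus SW480 with the HKDC1 plasmid, SW480 with the empty vector, COLO320DM with the HKDC1 plasmid and COLO320DM with the empty vector, with 3 libraries each. All of them had been exposed to 10 µg of plasmid in a lipid transfection reagent for 24 h, and no cells without plasmid were analysed here. Whether the libraries of a group came from separate cultures is not said in the labels. All p-values therefore measure spread between these samples, which may be technical. A difference between the lines compares SW480 with COLO320DM and no wider kind of tumour.

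Chemokines are small secreted proteins that attract leukocytes through G protein-coupled receptors. CXCL1, CXCL2, CXCL3 and CXCL8 draw neutrophils through the receptor CXCR2, CCL2 draws monocytes through CCR2, and CCL20 draws lymphocytes and dendritic cells that carry CCR6. CSF1 and CSF2 keep macrophages and granulocytes alive and growing, LIF signals to STAT3 through LIFR and IL6ST, and IL1A is released from damaged cells and acts on IL1R1. In epithelial and carcinoma cells many of these genes are induced through the transcription factor NF-kB, and AU-rich stretches in their 3′ untranslated regions are known to shorten the life of the mRNA.

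Library totals ranged from 33790733 to 45451279 counts. Levels are given as CPM, a gene's counts relative to its library's total after TMM scaling, and per kilobase of exon where genes are compared with each other. The transfected gene followed its labels: HKDC1 had 12230 to 14310 CPM in SW480 libraries with the HKDC1 plasmid, against 34.06 to 38.41 CPM with the empty vector, and 6580 to 9640 CPM in COLO320DM libraries with the plasmid, against 0 to 0.02383 CPM with the empty vector. The epithelial markers of the labelled tissue differed in kind between the lines. With the empty vector, EPCAM averaged 517.3 CPM in SW480, against 1.81 CPM in COLO320DM, and the keratin KRT8 3748 CPM, against 135.9 CPM. The intestinal transcription factor CDX2 ran the other way, at 13.26 CPM in SW480, against 1451 CPM in COLO320DM. KRT20 was near 1 CPM in both. The leukocyte gene PTPRC averaged 0.022 CPM in SW480 with the empty vector, against 36.63 CPM in COLO320DM, and the collagen gene COL3A1 0.0164 CPM, against 38.4 CPM. In SW480, the libraries numbered 1 of both plasmid groups stood apart from those numbered 2 and 3, and values without them are given beside the results that rest on them, as alternatives added after the data were seen.

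As a sum, the 10 genes were abundant in SW480 and scarce in COLO320DM. Their summed level was 130.7, 571.2 and 435.6 CPM in SW480 libraries 1, 2 and 3 with the HKDC1 plasmid and 125.7, 645.1 and 623.4 CPM with the empty vector. In COLO320DM the same sum was 2.2, 2.13 and 2.43 CPM with the plasmid and 1.96, 2.24 and 1.83 CPM with the empty vector. The lines did not overlap, and within SW480 the library numbered 1 was the lowest of each group.

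CXCL8, the main human neutrophil chemokine, was the most abundant of the 10 in SW480. The gene lies on the plus strand of chromosome 4, at chr4:73740541-73743716 on GRCh38. It had 41.74, 176.6 and 130.7 CPM in SW480 libraries 1, 2 and 3 with the HKDC1 plasmid, against 39.31, 205.4 and 203.7 CPM with the empty vector. No read was counted for it in any of the 6 COLO320DM libraries, which allows at most 0.027 CPM over the group with the plasmid and 0.0235 CPM over the group with the empty vector, taking 3 counts as the limit that a count of 0 leaves. The SW480 plasmid groups overlapped, with both libraries numbered 1 far below the other 4.

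CXCL1, CXCL2 and CXCL3, the neutrophil chemokines also called the growth-regulated oncogene (GRO) family, lie a short way along the same chromosome. CXCL1 (chr4:73869393-73871308, plus strand) had 24.91, 98.13 and 80.03 CPM in SW480 with the HKDC1 plasmid, against 25.79, 100.3 and 98.38 CPM with the empty vector. CXCL3 (chr4:74036589-74038807, minus strand) had 11.09, 73.99 and 54.06 CPM with the plasmid, against 9.63, 82.93 and 75.73 CPM with the empty vector. CXCL2 (chr4:74097040-74099196, minus strand) had 3.73, 23.76 and 18.7 CPM with the plasmid, against 3.4, 24.76 and 23.2 CPM with the empty vector. For all 3 genes the plasmid groups overlapped and the libraries numbered 1 were the lowest. In COLO320DM, CXCL1 and CXCL2 had 0 to 2 counts in a library, and CXCL3 was the only CXC gene of the 10 with a steady low count there, at 37, 28 and 30 counts with the plasmid and 36, 19 and 28 counts with the empty vector.

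The 3 genes are close copies of each other. Their coding sequences are 324 bases each and were identical at 93.5% of positions between CXCL1 and CXCL2, 94.4% between CXCL2 and CXCL3 and 90.7% between CXCL1 and CXCL3, against 52.5 to 54.1% of aligned positions between any of them and CXCL8. Of all stretches of 50 bases in the transcripts, 4.81% of those in CXCL1, 12.48% in CXCL2 and 6.01% in CXCL3 also occurred in another of the 3. At 100 bases the shares were 0% in CXCL1, 5% in CXCL2 and 3.27% in CXCL3. No such stretch of either length was shared by the other 7 genes, and the read length is not given in the sources used here. How the authors' counting treated reads from shared stretches is likewise not given, so the separate values of CXCL1, CXCL2 and CXCL3 carry that uncertainty.

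The copies extend into the promoters, which is why those are shown. RefSeq's table on GRCh38.p14 held promoters for 7 of the 10 genes. Printed are the 120 bases before RefSeq's start, 5′ to 3′ on the strand of the gene, with the match to the NF-kB motif in capitals. CXCL1 is chr4:73869273-73869392 on the plus strand, CXCL2 is chr4:74099196-74099315 and CXCL3 chr4:74038690-74038809 on the minus strand, and CCL20 is chr2:227813722-227813841 on the plus strand.
CXCL1: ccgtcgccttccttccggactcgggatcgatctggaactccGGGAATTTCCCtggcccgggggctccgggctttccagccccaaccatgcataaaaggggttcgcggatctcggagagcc
CXCL2: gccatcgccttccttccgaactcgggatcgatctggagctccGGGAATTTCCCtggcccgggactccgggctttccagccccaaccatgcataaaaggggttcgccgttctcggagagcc
CXCL3: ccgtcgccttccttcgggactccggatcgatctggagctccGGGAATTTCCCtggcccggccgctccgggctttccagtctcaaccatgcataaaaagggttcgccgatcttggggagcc
CCL20: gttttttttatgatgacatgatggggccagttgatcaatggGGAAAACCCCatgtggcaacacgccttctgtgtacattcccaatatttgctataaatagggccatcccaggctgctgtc

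The NF-kB motif was searched on both strands in the 300 bases from 250 before to 50 after each start. CXCL1, CXCL2 and CXCL3 carried the same capital run, in which matches on the plus and the minus strand overlap, from −79 to −69 in CXCL1 and CXCL3 and from −78 to −68 in CXCL2. CCL20 matched on the minus strand from −79 to −70. The motif was thus found in 4 of the 7 members with a promoter, and in 11.3% of 35116 promoters of that length. The matches in CXCL1, CXCL2 and CXCL3 are copies of the same run and not separate finds. A single strict pattern that begins with GGG and ends with CC was searched. A promoter without a match, such as that of CXCL8, is therefore not shown to lack an NF-kB site. An AP-1 motif, TGANTCA, was found in CXCL8 and IL1A and in 7.7% of all promoters, and a C/EBP motif, TTGCNNAA, in CXCL2 and in 10.5% of all promoters. A match is a stretch of letters and was not shown here to be bound.

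The stretch of chromosome 4 from CXCL8 to CXCL2 spans 358.7 kb and holds 18 genes of the table. Those with appreciable counts in SW480 were CXCL8, CXCL1, CXCL3, CXCL2 and CXCL6, another neutrophil chemokine, which averaged 19.18 ± 4.73 CPM with the HKDC1 plasmid and 17.32 ± 5.39 CPM with the empty vector (SD, n = 3 each). CXCL5, a chemokine of the same kind, averaged 0.406 CPM with the plasmid and 0.54 CPM with the empty vector. The platelet chemokine genes PF4 and PPBP, which lie between CXCL1 and CXCL3, had 0 and 1 count in all 12 libraries together. Within the 4 CXC genes described here, CXCL8 took 46.1 to 51.2% of the counts in a SW480 library with the plasmid and 49.7 to 50.8% with the empty vector. CXCL3 took 12.3 to 13.6% in the libraries numbered 1 and 18.9 to 20.1% in the others, so the makeup of the family also differed between these libraries.

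**Figure D1:**
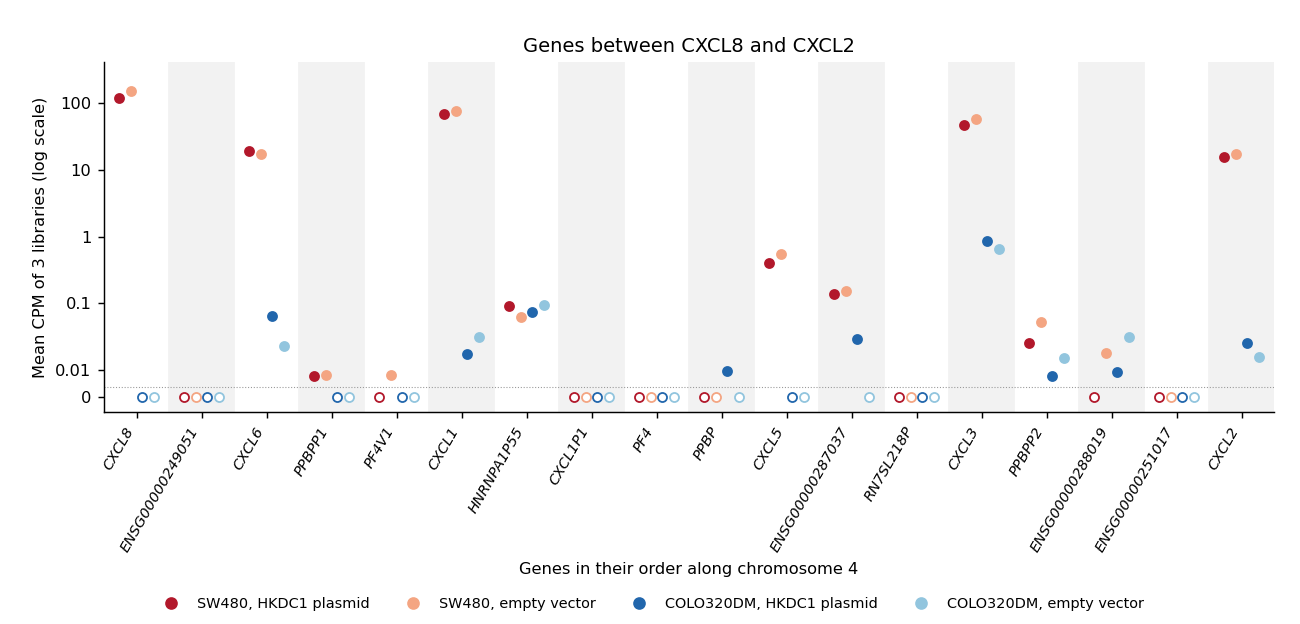
Mean CPM over 3 libraries (log scale, open circles on the lowest line for 0) of the 18 genes from CXCL8 to CXCL2, in their order along chromosome 4 and not to scale, with 1 point for each group. In SW480 the chemokines CXCL8, CXCL6, CXCL1, CXCL3 and CXCL2 stand above 15 CPM, and in COLO320DM CXCL3 is the highest of them, at 0.852 CPM with the HKDC1 plasmid and 0.65 CPM with the empty vector.

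CCL20, the ligand of CCR6, was close to CXCL1 in abundance. The gene (chr2:227805739-227817564, plus strand) had 32.07, 100.3 and 76.68 CPM in SW480 with the HKDC1 plasmid, against 27.32, 93.33 and 92.07 CPM with the empty vector, and a single count in the 6 COLO320DM libraries. CCL2, the monocyte chemokine, varied the most between SW480 libraries. The gene (chr17:34255218-34257203, plus strand) had 1.91, 40.42 and 30.01 CPM with the plasmid, against 1.71, 53.15 and 48.79 CPM with the empty vector. In COLO320DM all of its 3 counts came from 1 library with the HKDC1 plasmid, so it was not detected in the other 5.

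CSF2, which encodes the granulocyte-macrophage colony-stimulating factor, was absent from COLO320DM counts and moderate in SW480. The gene (chr5:132073789-132076170, plus strand) had 1.31, 12.48 and 8.28 CPM in SW480 with the HKDC1 plasmid, against 1.51, 16.32 and 17.46 CPM with the empty vector. CSF1, the macrophage colony-stimulating factor, was low in both lines. The gene (chr1:109910242-109930992, plus strand) had 0.597, 2.89 and 3.15 CPM in SW480 with the plasmid, against 0.389, 4.14 and 4.05 CPM with the empty vector. In COLO320DM it had 0.878, 0.868 and 1.19 CPM with the plasmid, against 0.778, 1.43 and 0.995 CPM with the empty vector. The SW480 libraries numbered 1 thus held less CSF1 than any COLO320DM library, and the other SW480 libraries held more.

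LIF (chr22:30240453-30246759, minus strand) had 13.31, 42.55 and 34.01 CPM in SW480 with the HKDC1 plasmid, against 16.58, 64.7 and 59.83 CPM with the empty vector. In COLO320DM it had 6, 14 and 9 counts with the plasmid and 9, 12 and 7 counts with the empty vector. Within SW480 the plasmid library was the lower one at each of the 3 numbers. LIF overlaps the antisense genes LIF-AS1 and LIF-AS2 by 86 and 83 bases of exon, which had 34 and 796 counts over the 12 libraries, beside 9187 for LIF. Reads from those shared bases cannot be assigned without a known strand setting. IL1A (chr2:112773915-112784590, minus strand) was at the limit of detection everywhere. It had 3, 3 and 0 counts in SW480 with the plasmid, 1, 0 and 7 with the empty vector, 5, 1 and 4 in COLO320DM with the plasmid, and 1, 1 and 0 with the empty vector, and it was not tested.

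**Figure D2:**
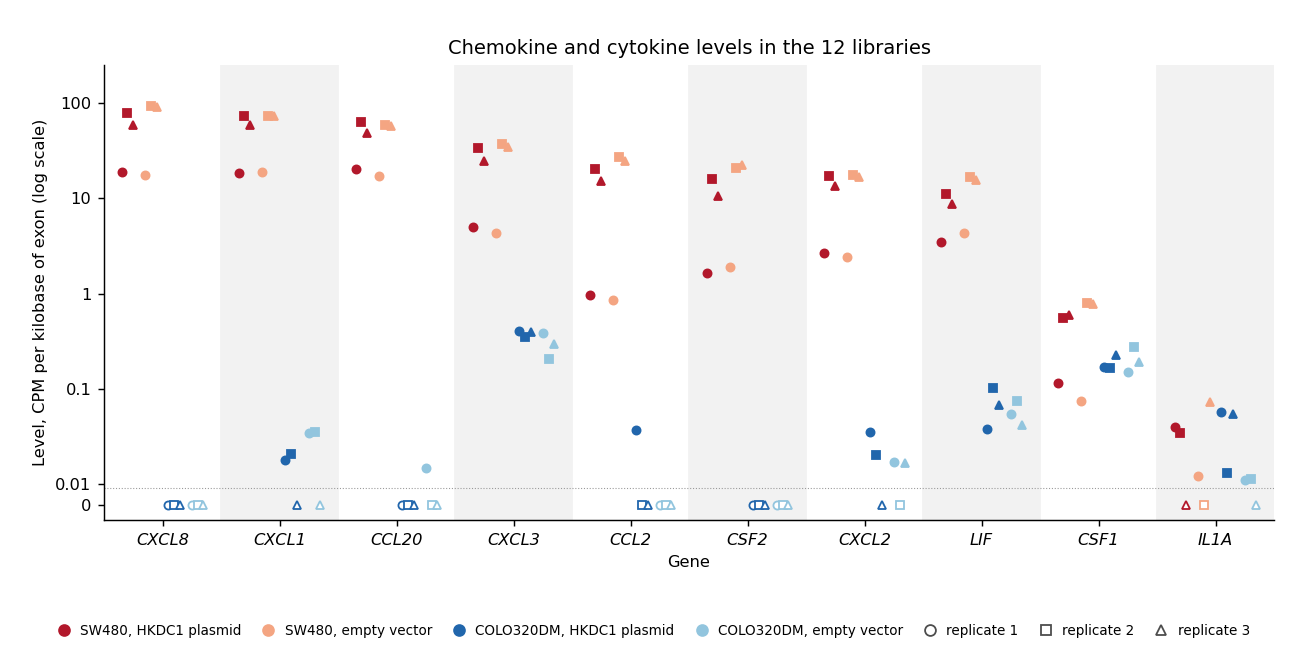
CPM per kilobase of exon (log scale, open symbols on the lowest line for 0) of the 10 genes in all 12 libraries, ordered by their mean in SW480 with the empty vector, with colours for the 4 groups and symbols for the replicate numbers. In SW480 the circles of the libraries numbered 1 lie below the squares and triangles for 9 genes, and in COLO320DM 4 genes, CXCL3, CSF1, LIF and IL1A, have counts in at least 5 of the 6 libraries.

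Per kilobase of exon, the order of the levels in SW480 was led by CXCL8, at 51.97 ± 30.63 CPM per kilobase with the HKDC1 plasmid and 66.77 ± 42.62 with the empty vector (SD, n = 3 each). CXCL1 and CCL20 followed, at 54.94 and 44.49 CPM per kilobase with the empty vector, then CXCL3, CCL2, CSF2, CXCL2 and LIF, between 25.28 and 12.15. CSF1 and IL1A were far lower, at 0.546 and 0.0282. With the empty vector, neighbours in this order from CXCL8 to LIF differed by less than the larger of their SDs over libraries. Without the libraries numbered 1 the order with the empty vector was the same over 2 libraries, at 91.37 CPM per kilobase for CXCL8, 72.94 for CXCL1, 58.16 for CCL20 and 35.75 for CXCL3. CXCL2 and LIF, at 17.15 and 16.09, were then the only neighbours from CXCL8 to LIF whose values overlapped. Within a library the order was partly fixed, since CCL20 stood above CXCL3, CXCL3 above CCL2 and LIF above CSF1 in 6 of 6 SW480 libraries, whereas CXCL8 stood above CXCL1 in 4 of 6 and CSF2 above CXCL2 in 2 of 6.

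With the empty vector, SW480 held far more of most of these genes than COLO320DM. Only CXCL3, LIF and CSF1 had enough counts in COLO320DM to pass the count filter there. The other 6 tested genes, CXCL1, CXCL2, CXCL8, CCL2, CCL20 and CSF2, passed it through SW480 alone. Such a filter favours genes that are higher in SW480, so no count or median over the 9 genes is read. CXCL3 was higher in SW480 by 6.42 on the log2 scale (SE 0.89, adjusted p = 2.26e-05) and LIF by 7.72 (SE 0.68, adjusted p = 2.89e-07), by edgeR's quasi-likelihood test with Benjamini-Hochberg adjustment over 23684 genes. Since 37.3% of all genes tested were called higher and 34.3% lower in SW480 at an adjusted p under 0.05, a call alone says little here. Without both SW480 libraries numbered 1 the differences were 6.94 for CXCL3 and 8.14 for LIF, and both passed.

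Ratios of the scaled counts give the sizes for every gene. CXCL8 was at least 6455-fold, CCL2 at least 1492-fold and CSF2 at least 511.2-fold higher in SW480, each against a floor of 3 counts over the COLO320DM group. CCL20 was 9160-fold higher, with a 95% counting interval of 1640 to 362000 that rests on 1 count in COLO320DM. CXCL1 was 2418-fold higher (944 to 8880) and CXCL2 1107-fold (306 to 9150), on 4 and 2 counts in COLO320DM. Where COLO320DM held more counts the ratios were firmer, at 216.5 for LIF (150 to 326) and 87.35 for CXCL3 (70.4 to 110). Without the SW480 empty-vector library numbered 1 all of these were larger, at 121.4 for CXCL3, 282.6 for LIF and 3166 for CXCL1, and at least 8698 for CXCL8, 2158 for CCL2 and 720.9 for CSF2. Intervals and floors cover counting error only, not the spread between libraries.

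CSF1 was the exception among the 9. It had a ratio of 2.73 (counting interval 2.23 to 3.35) and a log2 difference of 1.42 (SE 0.67) that did not pass the test (adjusted p = 0.0735). Without the SW480 empty-vector library numbered 1 the difference was 1.95 and passed, as it did without the SW480 plasmid library numbered 1, at 1.43 (adjusted p = 0.0475), and with DESeq2, at 1.45 (adjusted p = 0.041). With the replicate number as a block it was 0.95 (SE 0.22, adjusted p = 0.000157) and passed, but not when SW480 pair 2 or pair 3 was left out, at 0.42 and 0.45. IL1A had 8 counts in SW480 and 2 in COLO320DM with the empty vector, a ratio of 4.23 whose interval of 0.844 to 40.9 includes no difference. Without the SW480 library numbered 1 that ratio was 5.43 (1.03 to 53.6).

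Genes around these ligands were compared between the lines in the same way. Of 16 other chemokines listed 10 passed the filter, 7 of them through SW480 alone, so their number of calls is not read. CXCL6 averaged 17.32 CPM in SW480, against 0.0233 CPM in COLO320DM, and CCL7, CXCL5 and CCL24 averaged 1.54, 0.54 and 0.374 CPM in SW480 and had no count in COLO320DM. Of 26 other cytokines listed 17 passed, 5 through SW480 alone and 1 through COLO320DM alone. TNF, the classical inducer of NF-kB, averaged 3.17 CPM in SW480, against 0.0156 CPM in COLO320DM. LTB, the membrane-bound partner of lymphotoxin, averaged 39.92 CPM, against 0.251 CPM, and TNFSF15, a cytokine of the TNF family, 0.832 CPM with no count in COLO320DM. CTF1, a relative of LIF, was the lower one of the 4, at 0.0177 CPM in SW480, against 1.67 CPM in COLO320DM. All of the chemokines and cytokines just named passed through a single line, which favours a difference, and no general order of the lines is read from them. Of the 17 cytokines tested 11 were called higher in SW480 and 5 lower, such genes included, beside 37.3% and 34.3% of all genes tested. Of 20 genes of NF-kB and interleukin-1 signalling, 19 passed the filter in each line, 13 were called higher in SW480 and 1 lower, and the median log2 difference was 0.73, against 0.04 for all genes. MYD88, the adaptor of interleukin-1 and Toll-like receptors and the gene of that list that passed through SW480 alone, differed by 6.52, with 13.26 CPM in SW480 and 0.141 CPM in COLO320DM. BIRC3, TNFAIP3 and RELB, all known NF-kB target genes, were higher by 3.81, 3.56 and 2.93. Without both SW480 libraries numbered 1 these 3 differences were 4.25, 3.93 and 3.29, and 13 genes of the list were called higher and 2 lower.

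Markers of other cell types also differed between the lines. Of 7 listed leukocyte markers 6 were tested, 3 of which passed the filter through SW480 alone and 2 through COLO320DM alone. The summed level of the 7 was 2 to 3.32 CPM in SW480 libraries with the empty vector, against 39.5 to 42.97 CPM in COLO320DM. CD3E had 2 counts in each of these groups, and PTPRC had 3 in SW480. Most of the COLO320DM sum was PTPRC, at a mean of 36.63 CPM. CD14 and ITGAM ran the other way, at 0.727 and 0.962 CPM in SW480 with the empty vector, against 0.1255 and 0.235 CPM in COLO320DM. Of the 6 tested, 2 were called higher in SW480 and 2 lower, beside 37.3% and 34.3% of all genes tested. Of 7 fibroblast and endothelial markers 4 were tested, 2 of which passed in each line, and the 7 had sums of 2.8 to 6.48 CPM in SW480 and 39.57 to 63.11 CPM in COLO320DM, where DCN was at 0. Most of that COLO320DM sum was COL3A1, at a mean of 38.4 CPM. Of the 4 tested, 1 was called higher in SW480 and 3 lower. The part of such cell identity genes in the chemokine difference was not tested.

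The receptors of these ligands were mostly scarce in both lines. Of 13 receptor genes listed, 7 were tested, 4 of them through SW480 alone. Among those 4, IL1R2, IL1RAP and CXCR2 averaged 4.82, 3.99 and 0.279 CPM in SW480 with the empty vector, against 0.118, 0.164 and 0.0156 CPM in COLO320DM. CCR6, the receptor of CCL20, was the remaining gene and not higher in SW480, at 0.197 CPM against 0.243 CPM in COLO320DM. IL1R2, a decoy receptor for interleukin-1, averaged 4.62 CPM in SW480 with the HKDC1 plasmid and 4.82 CPM with the empty vector, and IL1R1, the signalling receptor, 0.565 and 0.56 CPM. CXCR2 averaged 0.18 CPM with the plasmid and 0.279 CPM with the empty vector, at the edge of detection. IL6ST, the shared chain of the LIF receptor, averaged 56.9 and 56.74 CPM in SW480 and 55.16 and 56.76 CPM in COLO320DM, with the plasmid and with the empty vector in each. LIFR, which LIF binds itself, had 0 to 2 counts in every library of either line. CCR2, the receptor of CCL2, had no count in any group.

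The SW480 libraries numbered 1 held less of every tested gene of the group than the other 4 SW480 libraries. This was so for 9 of 9 genes, whereas 28.4% of all genes tested were lower in both of these libraries than in the other 4. The mean of libraries 2 and 3 over that of library 1, plasmids combined, was 23.82 for CCL2, 9.69 for CSF2, 7.21 for CSF1, 6.92 for CXCL3 and 6.35 for CXCL2. It was 4.42 for CXCL8, 3.72 for CXCL1, 3.36 for LIF and 3.05 for CCL20. The median of the 9 ratios was 6.35, the median over all genes tested was 1.02, and 4.43% of all genes tested had a ratio of 3 or more, as all 9 of these genes did. No such order appeared in COLO320DM, where CXCL3, CSF1 and LIF had ratios of 0.786, 1.35 and 1.53.

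Other inflammatory genes moved with them in SW480. Among NF-kB and interleukin-1 signalling genes, 13 of 20 were likewise lower in both libraries numbered 1, with ratios of 6.2 for IRAK2, 3.67 for BIRC3, 3.26 for NFKBIZ and 3.17 for NFKBIA, while the median of that list was 1.18 and RELA had 1.07. In 4 of these 20 genes both libraries numbered 1 were instead the highest. Of 17 other cytokines tested 12 were lower in both libraries numbered 1 and 1 was higher, with a median ratio of 1.64. CSF3 had the highest ratio of that list at 9.84, followed by LTB with 8.06 and TNF with 6.63, while TGFB1 had 0.761. The CSF3 ratio rests on a mean of 0.043 CPM in the libraries numbered 1, near the limit of detection, where LTB averaged 6.34 CPM. The epithelial markers went the other way, with 6 of 7 higher in both libraries numbered 1 than in the other 4 and a median ratio of 0.75, where 27.1% of all genes tested were higher in both. Their summed level was 8513 CPM in library 1 and 6291 to 7158 CPM in the others with the HKDC1 plasmid, and 8815 CPM against 6291 to 6712 CPM with the empty vector. Of 6 leukocyte markers tested 1 was lower in both and 1 higher in both. ITGAM averaged 0.229 CPM in the libraries numbered 1 and 1.03 CPM in the others, CD14 1.11 and 0.664 CPM, and PTPRC, which defines leukocytes, 0 and 0.0287 CPM. Of 4 fibroblast and endothelial markers 2 were lower in both, COL1A1 with a ratio of 1.7 and PDGFRB with 2.29, and COL3A1 was at 0 and 0.0195 CPM. The part of these other changes in the chemokine levels was not tested, and no label says how the libraries numbered 1 were handled.

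**Figure D3:**
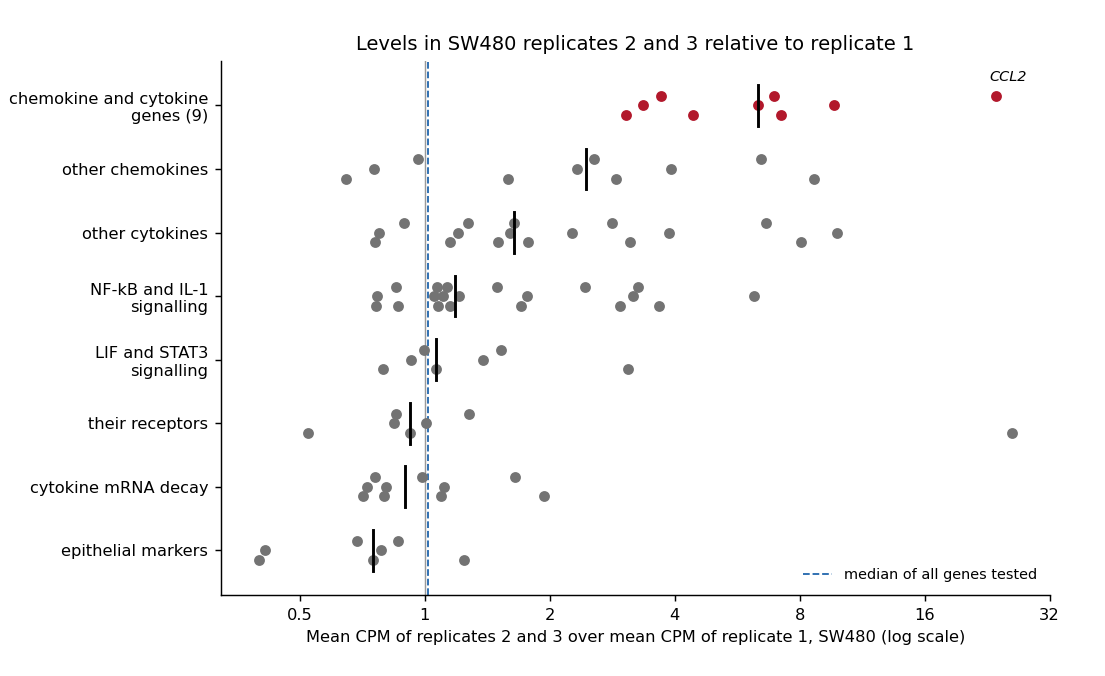
Mean CPM of SW480 libraries 2 and 3 over that of library 1, both plasmid groups together (log scale), with 1 point for a gene, a black bar at the median of each list and a dashed line at the median of all genes tested, 1.02. The 9 chemokine and cytokine genes lie between 3.05 and 23.82, and the lists of receptors, cytokine mRNA decay factors and epithelial markers have medians below 1.

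The HKDC1 plasmid was then compared with the empty vector in SW480, the comparison that asks whether the added hexokinase family gene alters these signals. Without regard to the replicate numbers, 0 of the 9 genes passed edgeR's quasi-likelihood test, as did 3 genes of all tested (0.0127%). DESeq2 and limma-voom also called 0 of the 9, and 0 of the 9 had an unadjusted p under 0.05. All 9 fitted differences were below 0, from −0.03 for CCL20 to −0.67 for CSF2, with a median of −0.36 against 0 for all genes, although limma-voom gave CCL20 a value above 0. The plasmid groups overlapped for each gene, and the exact two-sided permutation p over 3 against 3 libraries was 0.4 for LIF and 0.5 to 1 for the others, where 0.1 is the smallest that this design allows.

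Since the libraries numbered 1 stood apart, the same-numbered libraries were also set against each other. At number 1, 6 of the 9 genes were higher with the HKDC1 plasmid and the median log2 difference was 0.13. At number 2, 8 of 9 were lower with a median of −0.22, and at number 3 all 9 were lower with a median of −0.49. Over all genes tested the medians were 0.0024, −0.0054 and 0.0136 at numbers 1, 2 and 3. The 9 genes were read in the same libraries, so their directions within a pair are not separate observations. The 3 genes that were lower at every number were CXCL1, CSF2 and LIF.

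LIF, CSF2 and CCL2 fell with the HKDC1 plasmid when the replicate number was kept as a block within its line. This fit called 3 of the 9 genes, all lower, and 180 genes of all tested (0.76%). The LIF differences at numbers 1, 2 and 3 were −0.32, −0.60 and −0.81, and the fitted difference was −0.60 (SE 0.08, adjusted p = 5.41e-05), lower in 3 of 3 pairs. CSF2 had −0.19, −0.39 and −1.07, and a fitted difference of −0.65 (SE 0.14, adjusted p = 0.0146), lower in 3 of 3 pairs. CCL2 had 0.15, −0.40 and −0.70, and a fitted difference of −0.47 (SE 0.10, adjusted p = 0.0147), lower in 2 of 3 pairs. The adjusted p-values assume that the pairs are independent, although libraries 2 and 3 also correlated across numbers. The SEs and p-values come from a fit that draws its spread partly from other genes. They are thus not a measure of the spread of a gene's own 3 pairs, which ran from −0.19 to −1.07 for CSF2 and from 0.15 to −0.70 for CCL2.

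The 6 other tested genes did not pass in that fit. CXCL8 had a fitted difference of −0.27 (SE 0.15, adjusted p = 0.658), CXCL3 −0.20 (SE 0.09, adjusted p = 0.416) and CXCL1 −0.13 (SE 0.07, adjusted p = 0.543). CSF1 had −0.31, CXCL2 −0.12 and CCL20 0.01, the last with its sign turned relative to the fit without block. The median over the 9 genes was −0.27, against 0 for all genes.

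LIF passed with any pair of either line left out, with differences of −0.73, −0.61 and −0.49 without SW480 pair 1, 2 and 3. The calls of CSF2 and CCL2 depended on the pairs, since neither passed without SW480 pair 2 or pair 3. Without SW480 pair 1, the pair that stood apart, LIF, CSF2 (−0.74), CCL2 (−0.56), CXCL8 (−0.45) and CXCL3 (−0.34) all passed, while without the block and without both of these libraries 0 of the 9 genes passed and LIF had −0.72 (adjusted p = 0.0847).

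**Figure D4:**
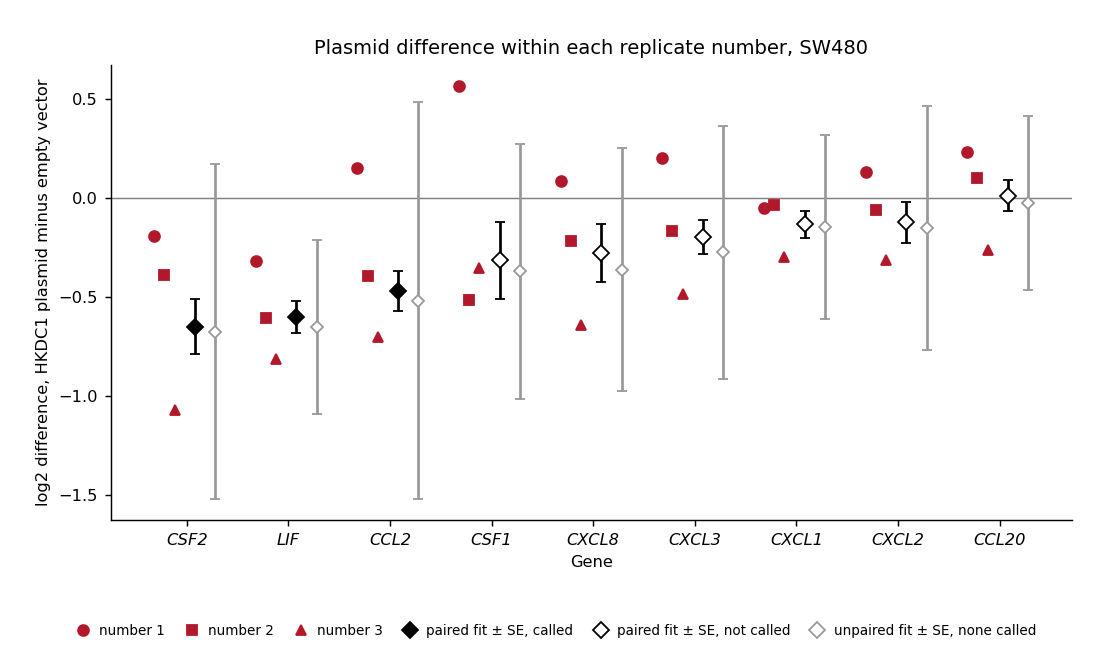
The log2 difference between the HKDC1 plasmid and the empty vector in SW480 for the 9 tested genes, as the difference within each replicate number (red symbols) and as fitted with the replicate number as a block (black, ± SE, filled where the adjusted p was under 0.05) or without it (grey, ± SE). LIF, CSF2 and CCL2 are filled, with −0.60, −0.65 and −0.47, and the circles of number 1 are the highest symbol for 8 of the 9 genes.

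Some neighbours of these genes in the inflammatory network passed in the same blocked fit, all lower with the HKDC1 plasmid, but none of them passed without the block. Whether their calls hold with a pair left out was not examined. IL23A, which encodes a subunit of interleukin-23, had 2.9, 8.98 and 7.7 CPM with the plasmid, against 2.88, 14.47 and 13.68 CPM with the empty vector, and a difference of −0.59 (adjusted p = 0.0181). CLCF1, like LIF a cytokine of the interleukin-6 family, had 3.1, 5.04 and 4.93 CPM, against 4.05, 8.09 and 7.3 CPM, and a difference of −0.56 (adjusted p = 0.0348). These were the 2 calls among 17 other cytokines tested, and 0 of 10 other chemokines passed. Of the 20 signalling genes, NFKB2 (−0.31, adjusted p = 0.0119) and RELB (−0.34, adjusted p = 0.0312), which form the dimer of the non-canonical NF-kB pathway, passed and 18 did not.

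ZFP36L1, an RNA-binding protein that promotes decay of AU-rich mRNAs, was the 1 call among 10 genes of cytokine mRNA decay. It had 73.99, 138.5 and 119.2 CPM with the HKDC1 plasmid, against 84.44, 185.7 and 170.0 CPM with the empty vector, and a difference of −0.38 (adjusted p = 0.000384). PIM1, a STAT3 target gene, was the 1 call among 7 genes of LIF and STAT3 signalling tested, at −0.43 (adjusted p = 0.0486). Neither ZFP36L1 nor PIM1 passed without the block, and their calls were not examined with a pair left out. Of 7 epithelial markers, 6 leukocyte markers and 4 fibroblast and endothelial markers tested, none passed with or without the block, and 3, 1 and 1 of them had an unadjusted p under 0.05 with it. The 4 fibroblast and endothelial markers all had differences below 0, with a median of −0.50 without the block and −0.48 with it, and their part in the chemokine differences was not tested. PTPRC stayed near 0 in SW480, with a mean of 0.0163 CPM with the plasmid and of 0.022 CPM with the empty vector.

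In COLO320DM the plasmid comparison could be read for few of these genes. With and without the block 0 of the 9 passed, and 18 genes (0.076%) and 2 genes (0.00844%) of all tested did. None of the 9 had an unadjusted p under 0.05 in either fit. CXCL3 had 0.902, 0.784 and 0.868 CPM with the HKDC1 plasmid, against 0.848, 0.453 and 0.648 CPM with the empty vector, a difference of 0.38 in the blocked fit (SE 0.25, adjusted p = 0.946). LIF had 0.25 (SE 0.39) and CSF1 −0.11 (SE 0.24) in the same fit. These values rest on 19 to 60 counts a library for CXCL3 and CSF1 and on 6 to 14 for LIF, and how small a change could be detected at such counts was not tested.

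The plasmid effects of the lines were also tested against each other. Among all genes 2 (0.00844%) were called without the block and 10 (0.0422%) with it, none of them a gene described here. Of these genes the test can be read for CXCL3, CSF1 and LIF only, since CSF2 and CXCL8 had no count in COLO320DM and CCL2, CCL20, CXCL1 and CXCL2 had at most a few. For LIF the difference of SW480 minus COLO320DM was −0.85 with the block (SE 0.40, unadjusted p = 0.0408, adjusted p = 0.637) and −0.90 without it (SE 1.15, adjusted p = 1). For CXCL3 it was −0.58 (SE 0.26, unadjusted p = 0.0343, adjusted p = 0.619) and for CSF1 −0.20 (SE 0.31, adjusted p = 0.93) with the block. The drop of LIF in SW480 was thus not shown to be particular to that line, and for CSF2 and CCL2 the lines could not be compared.

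Genes whose pattern over the 6 SW480 libraries lay nearest to that of CXCL8 were NEURL3, CHRND and RAB39B, with root-mean-square differences of 0.095, 0.102 and 0.109 in centred log2 CPM among 17338 genes with at least 1 CPM. Of the other 8 tested members, CXCL1 ranked 16, LIF 70, CXCL2 82, CCL20 103, CXCL3 127, CSF1 168 and CSF2 459. CCL2 ranked 12211, with a difference of 1.12, since its span between libraries was far wider. Over the 4 SW480 libraries numbered 2 and 3 the ranks changed, with CXCL3 at 46, CCL2 at 54, CXCL2 at 463 and CXCL1 at 615. LIF, CSF2, CCL20 and CSF1 then ranked 749, 1080, 1418 and 2349. NEURL3 was again among the nearest 3, while CHRND and RAB39B ranked 308 and 104. In COLO320DM, CSF1 had the highest mean CPM of the 10 genes, at 0.978 CPM with the HKDC1 plasmid and 1.07 CPM with the empty vector, although per kilobase CXCL3 was higher, at 0.384 and 0.293 CPM per kilobase, against 0.187 and 0.204 for CSF1. IL16 (0.084), ZSCAN12P1 (0.088) and ENSG00000269374 (0.105) lay nearest to CSF1 among 16761 genes. The likeness is a description without a test, and no label says how the libraries were handled.

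The 3′ untranslated regions were read for a property that played no part in choosing the genes. The AU-rich pentamer ATTTA was counted on the transcript's strand in the GENCODE 29 transcript of each gene. Printed are windows of 30 bases with the pentamers in capitals, for the 5 genes with the most pentamers per kilobase of the whole region and for LIF and CCL2, which, like CSF2, fell in the blocked fit.
CSF2, bases 220 to 249: ttttaaaatATTTATTTATTTATTTATTTA
CXCL2, bases 137 to 166: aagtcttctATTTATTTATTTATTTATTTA
CXCL3, bases 143 to 172: ttacgagggttctacttATTTAtgtATTTA
CXCL8, bases 644 to 673: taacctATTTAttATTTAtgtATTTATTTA
CXCL1, bases 129 to 158: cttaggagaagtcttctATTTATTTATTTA
LIF, bases 3100 to 3129: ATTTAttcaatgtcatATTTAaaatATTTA
CCL2, bases 111 to 140: tatgccttaagtaatgttaattcttATTTA

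CSF2 had 8 pentamers in 318 bases, or 25.16 per kb, a density above that of nearly every other gene. CXCL2 had 13.87 per kb, CXCL3 10.4, CXCL8 7.19, CXCL1 7.08, CCL20 6.65 and IL1A 4.34. CCL2, LIF and CSF1 had 2.66, 2.18 and 1.86 per kb, close to the median of 1.55 over 17332 coding genes. Whether this density bears on the plasmid differences was not tested. All 10 genes were above that median. The longer form TTATTTATT occurred in 6 of the 10, namely CXCL1, CXCL2, CXCL3, CXCL8, CSF2 and LIF, and in 7.8% of all genes with at least 100 bases of 3′ untranslated region.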

How the data were processed

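The deposited table holds raw counts per gene for 12 libraries, with an Ensembl identifier, a position on GRCh38 and an exon length for each gene. HISAT2 2.1.0, limma and GRCh38 are listed in the submitters' processing notes; the read counter, annotation release and strand setting are not given in the sources used here. Symbols were found for 60295 of 60623 genes. Groups and replicate numbers came from the sample titles.

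The genes, the other lists and the tests were chosen with earlier results of these data known. From each list other than the 10 genes, at most 4 genes a comparison were named, those called with the largest difference, and receptors with their level. CXCL11, the marker genes, and the genes set beside the SW480 libraries numbered 1 were named outside this rule, after their values were seen. The single value of 1 listed marker is not reported here. The likeness rule was the smallest root-mean-square difference.

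A model of the 4 group means was fitted over the 12 libraries with edgeR 4.0.16 in R 4.3.3, after filterByExpr (minimum count 10, minimum total 15) and TMM scaling. Quasi-likelihood F tests were Benjamini-Hochberg adjusted over 23684 genes and called under 0.05. The residual degrees of freedom were 8, with a biological coefficient of variation of 0.157. SE is the size of the log2 difference divided by the square root of F. The filter was set over all groups, so genes without counts in COLO320DM passed through SW480; for this, the filter was also run on each line alone. The test recovered changes placed in simulated counts that held no differences between replicate numbers. Those changes were larger than any plasmid difference of the genes described here in SW480. How small a change could be recovered was therefore not tested.

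The labels number the libraries 1 to 3 in each group. After removal of the group means, libraries of the same number in the plasmid groups had correlations of 0.725, 0.424 and 0.3 in SW480 and 0.401, 0.139 and 0.115 in COLO320DM, all above 0.1, so the numbers were taken to pair the libraries; this comes from the data, not from a label. Between library 2 of one plasmid and library 3 of the other the correlations were no lower (0.465 and 0.376 in SW480, 0.159 in COLO320DM). A fit with a block for the replicate number of each line left 4 residual degrees of freedom, with a coefficient of variation of 0.06.

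Alternatives were DESeq2 1.42.0, limma-voom (limma 3.58.1), RLE scaling, no count filter, a single line in the fit, and libraries or pairs left out. Counting intervals are at 95%. Exons and untranslated regions came from GENCODE 29, where 58516 identifiers were found and 46623 (79.7%) had the same start and end, 5 of the 10 genes among them. Promoters came from RefSeq on GRCh38.p14.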

Additional observations from a re-analysis of the deposited data

How the results depend on the processing

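Low counts, at library totals of 33790733 or more, limit what can be read for IL1A in both lines. In COLO320DM they do so for all of the genes but CXCL3, CSF1 and LIF. Calls in SW480 depend on the pairing. Over all alternatives, 532 values kept direction and side of the threshold, 28 newly passed it, 1 no longer passed it and 27 turned direction; the causes were not tested.

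With the replicate block, the genes called were 180 (main 3) for the plasmid in SW480, 18 (main 2) in COLO320DM and 10 (main 2) for the difference between the lines, and 3 of the 9 members were called in SW480 (main 0). With the block and COLO320DM pair 1, 2 or 3 left out, these were 192, 282 and 204 in SW480, 9, 18 and 7 in COLO320DM and 6, 32 and 6 for the difference, with 3 members each. With the block and SW480 pair 1, 2 or 3 left out, they were 538, 13 and 49, then 24, 15 and 19, then 139, 6 and 27, with 5, 1 and 1 members. Without block and without both SW480 libraries numbered 1, an alternative chosen after seeing the data, 10 genes were called in SW480. Leaving out 1 library at a time gave 3 to 5 genes in SW480, the 5 without the empty-vector library numbered 1.

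Differences that turned direction were not called in either setting. Leaving out 1 library at a time gave these ranges of the log2 difference in SW480: CCL2 −1.15 to 0.014, CCL20 −0.43 to 0.31, CSF1 −0.90 to 0.061, CXCL1 −0.57 to 0.24, CXCL2 −0.65 to 0.30, CXCL3 −0.81 to 0.18 and CXCL8 −0.83 to 0.029. In COLO320DM it gave CSF1 −0.31 to 0.14 and LIF −0.13 to 0.57, and for the difference between the lines CSF1 −0.77 to 0.19. CCL20 in SW480 had 0.026 with limma-voom, 0.013 with the block, 0.011, 0.013 and 0.013 with the block and COLO320DM pair 1, 2 or 3 left out, and 0.16 without SW480 pair 3. CSF1 in COLO320DM had 0.22 with the block and without pair 2, and its difference between the lines was 0.001 with limma-voom. The block changed no other call of a member than LIF, CSF2 and CCL2 in SW480 and CSF1 between the lines.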

Other observations

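Some secreted factors were lower in SW480 than in COLO320DM, unlike CXCL3 and LIF. CXCL11, an interferon-induced chemokine for T cells, was the 1 chemokine called lower in SW480 and was singled out after its values were seen. It averaged 0.228 ± 0.114 CPM in SW480 with the HKDC1 plasmid and 0.421 ± 0.354 CPM with the empty vector, against 19.27 ± 3.07 and 18.68 ± 4.91 CPM in COLO320DM (SD, n = 3 each). Its log2 difference between the lines with the empty vector was −5.46 (SE 0.46, adjusted p = 1.93e-07, edgeR's quasi-likelihood test), and −4.92 without both SW480 libraries numbered 1. CTF1, like LIF a cytokine of the interleukin-6 family, averaged 0.0286 CPM in SW480 with the plasmid and 0.0177 CPM with the empty vector, against 1.67 CPM in both COLO320DM groups. CTF1 passed the count filter through COLO320DM alone, so its order in the lines is not read. CXCL3 and CXCL11, which both passed the count filter in each line, thus had opposite orders in the lines, and why was not tested. The other neutrophil chemokines tested passed through SW480 alone, so their order is not read.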
